A study of Arabidopsis thaliana with 12 samples.

Results

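Mitochondria make ATP at their inner membrane, where electron carriers pump protons and the ATP synthase lets them back. The 4 genes described here encode proteins of that membrane or of the machinery bound to it. GLDH (AT3G47930) catalyses the last step of plant ascorbate (vitamin C) synthesis and passes its electrons to cytochrome c. AT5G47030 encodes the delta subunit of the ATP synthase, a part of the rotating stalk below the catalytic head. AT4G32060 encodes MICU, a calcium-binding regulator of calcium uptake into mitochondria. AT4G39690 encodes MIC60, a protein that shapes the cristae, the folds of the inner membrane. The members were chosen through the platform annotation, as the probes whose annotation gives 1 of these genes alone. Each gene had 1 such probe, so 4 of 3439 probes, and 4 of the 692 probes paired with a single gene, are members. They were selected on results of the comparison between aap3 and WT roots, namely their differences and adjusted p-values with the replicate number as a block, so their differences between the groups are given as a description.

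The study compared roots of the Arabidopsis thaliana mutant aap3, which lacks the amino acid transporter AAP3, with wild-type (WT) roots. Both groups are of ecotype Wassilevskija and have 6 samples each, numbered 1 to 6. The labels give no age, growth condition, treatment or further allele, and do not say whether samples came from separate plants. Any p-value below thus reflects the spread among these samples, part of which may be technical. AAP3 carries amino acids into cells and is known from root vascular tissue.

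The deposited values are linear intensities on an unstated scale from 0 to just under 100. Sample medians averaged 0.490 ± 0.011 in aap3 roots and 0.514 ± 0.018 in WT roots (SD, n = 6 each). For log2 values each sample was divided by its median, floored at 0.200 times the median and quantile normalized, which gives every sample the same set of values. All 4 members lay above this floor in all 12 samples. The deviations of an aap3 sample from its group mean resembled those of the WT sample with its number (r across probes between 0.73 and 0.75), so the numbers were taken to pair the samples. Differences of replicates 1 and 2, 3 and 4, and 5 and 6 were more alike (r across probes between 0.54 and 0.65) than those of other pairs (r between 0.32 and 0.35), and the 6 pairs may not be 6 independent repeats. None of 14 root marker genes and none of 7 leaf marker genes had a single-gene probe, so the labelled tissue was not checked here. AAP3 had no single-gene probe either.

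In aap3 roots 3 members were lower and 1 was higher than in WT roots, each in 6 of 6 replicate pairs. GLDH, MICU and MIC60 were the lower ones and the ATP synthase delta subunit was the higher one. After quantile normalization MICU had the largest difference of the 4, with a level in aap3 of 0.671 times that in WT. The other 3 levels in aap3 on this scale were 0.822, 0.868 and 1.24 times those in WT, for GLDH, MIC60 and the ATP synthase delta subunit in that order. With median scaling alone the MICU log2 difference was -0.46, against -0.58 after quantile normalization. In whole roots, fewer cells of a type and less RNA per cell cannot be told apart. Over all probes, 11.9% were lower in aap3 in all 6 pairs on the normalized log2 scale, and 12% were higher.

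**Figure D1:**
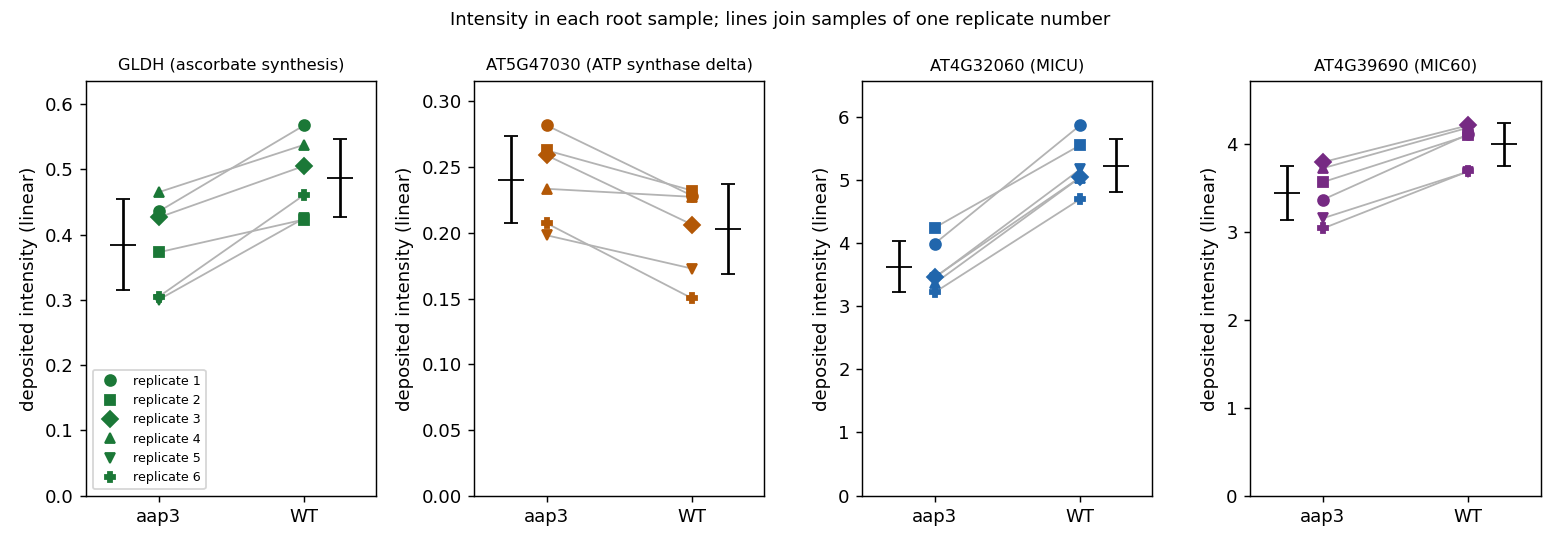
Deposited intensity (linear axis from 0, unstated scale) of the 4 genes in aap3 roots (left in each panel) and WT roots (right); symbols are replicate numbers, lines join same-numbered samples, and bars beside the points give mean ± SD (n = 6). Only the AT4G32060 samples separate fully, at 3.22 to 4.24 in aap3 and 4.69 to 5.86 in WT.

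GLDH, the ascorbate enzyme, came to intensities of 0.436, 0.373, 0.426, 0.465, 0.300 and 0.305 in aap3 roots 1 to 6, against 0.567, 0.423, 0.505, 0.538, 0.425 and 0.461 in WT roots 1 to 6. The lowest samples were aap3 replicates 5 and 6, and the groups overlapped: 3 aap3 samples lay below every WT sample. The means were 0.384 ± 0.070 in aap3 and 0.487 ± 0.060 in WT (SD, n = 6 each). On the normalized log2 scale the difference was -0.28 ± 0.11 (SE). Pair by pair it ran between -0.54 in pair 6 and -0.11 in pair 2. Pairs 5 and 6 averaged -0.49, pairs 1 and 2 averaged -0.21 and pairs 3 and 4 averaged -0.14. The size of the GLDH difference thus varied more among the pairs (SD 0.18) than that of any other member.

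The ATP synthase delta subunit gene AT5G47030 had intensities of 0.282, 0.263, 0.259, 0.234, 0.198 and 0.207 in aap3 roots 1 to 6, against 0.228, 0.232, 0.206, 0.227, 0.173 and 0.150 in WT roots 1 to 6. Replicates 5 and 6 were the lowest of both groups, and the groups overlapped, with 4 aap3 samples above every WT sample in deposited intensity. The mean intensity was 0.240 ± 0.033 in aap3 and 0.203 ± 0.034 in WT (SD, n = 6 each). The normalized log2 difference was 0.31 ± 0.13 (SE), a level in aap3 of 1.24 times that in WT. Pair differences ran between 0.11 in pair 4 and 0.53 in pair 6. In pair 4 the deposited intensities differed by a ratio of aap3 over WT of only 1.03, which became 1.09 after each sample was divided by its median. This probe lay close to the floor, and its lowest sample, WT replicate 6, stood at 1.5 times the floor.

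AT4G32060, encoding MICU, had intensities of 3.99, 4.24, 3.46, 3.36, 3.45 and 3.22 in aap3 roots 1 to 6, against 5.86, 5.55, 5.04, 5.03, 5.16 and 4.69 in WT roots 1 to 6. The groups did not overlap, since the highest aap3 sample lay below the lowest WT sample; 2.01% of all probes separated this way, with aap3 lower, on the normalized log2 scale and 3.87% did so in deposited intensity. The means were 3.62 ± 0.40 in aap3 and 5.22 ± 0.42 in WT (SD, n = 6 each). The normalized log2 difference was -0.58 ± 0.07 (SE). Pair differences stayed between -0.68 in pair 4 and -0.43 in pair 2. The averages over pairs 1 and 2, 3 and 4, and 5 and 6 were -0.53, -0.65 and -0.54. Of all probes, 42 (1.22%) had a larger difference in either direction.

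AT4G39690, encoding MIC60, had intensities of 3.37, 3.57, 3.80, 3.73, 3.16 and 3.04 in aap3 roots 1 to 6, against 4.11, 4.10, 4.22, 4.19, 3.69 and 3.69 in WT roots 1 to 6. Replicates 5 and 6 were the lowest of both groups. The groups overlapped only where aap3 replicates 3 and 4 lay above WT replicates 5 and 6, and the other 4 aap3 samples were below every WT sample. The means were 3.45 ± 0.31 in aap3 and 4.0 ± 0.24 in WT (SD, n = 6 each). The normalized log2 difference was -0.20 ± 0.06 (SE), a level in aap3 of 0.868 times that in WT. On this scale the pair differences were the most even of the 4 genes, between -0.29 in pair 1 and -0.15 in pair 3, with an SD of 0.06. With median scaling alone the ratios of aap3 over WT ran between 0.855 in pair 6 and 0.964 in pair 3.

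**Figure D2:**
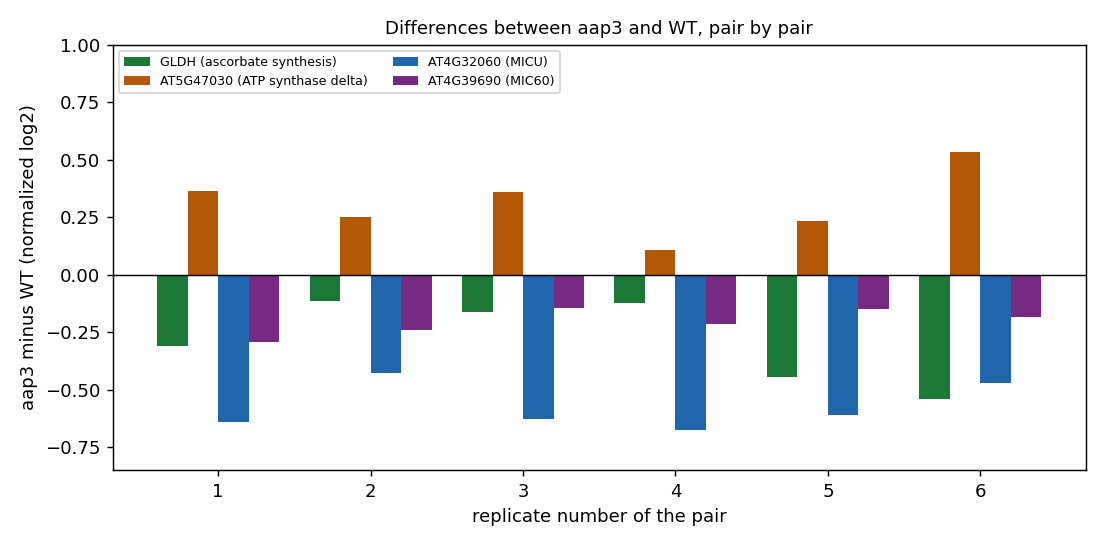
Difference between aap3 and WT (aap3 minus WT, normalized log2) of each gene in each of the 6 replicate pairs. AT5G47030 lay above 0 in 6 of 6 pairs (0.11 to 0.53) and the other genes below 0 in 6 of 6.

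The values by which these genes had come to notice were their adjusted p-values in fits across all 3439 probes with limma, a linear model with a shared variance estimate and Benjamini-Hochberg adjustment. Without the pairing, 172 probes (5%) passed an adjusted p of 0.05, and 1 of the 4 members was among them. Of the 172 probes, 86 were higher and 86 lower in aap3, and deposited values without scaling gave 71 higher and 210 lower. This was MICU (limma adjusted p = 0.000738). MIC60 (0.0679), GLDH (0.208) and the ATP synthase delta subunit (0.257) had larger limma adjusted p-values. A fit that took the replicate numbers as blocks passed 587 probes (17.1%), and all 4 members were among them. The limma adjusted p with the block was 0.00141 for MICU, 0.00491 for MIC60, 0.0187 for the ATP synthase delta subunit and 0.0441 for GLDH. The SE with the block was 0.04 for MICU, 0.02 for MIC60, 0.06 for AT5G47030 and 0.07 for GLDH. Since these values chose the members, nothing is read from the counts. Replicates 1 and 2, 3 and 4, and 5 and 6 were also averaged to 3 values per group and fitted without the block. On these averages limma called 0 of the 4 members and 1 of all probes (0.0291%). The unblocked fit of all samples had called 1 member and 172 probes (5%). With the averages 1 member had an unadjusted limma p under 0.05, as did 373 of all probes.

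**Figure D3:**
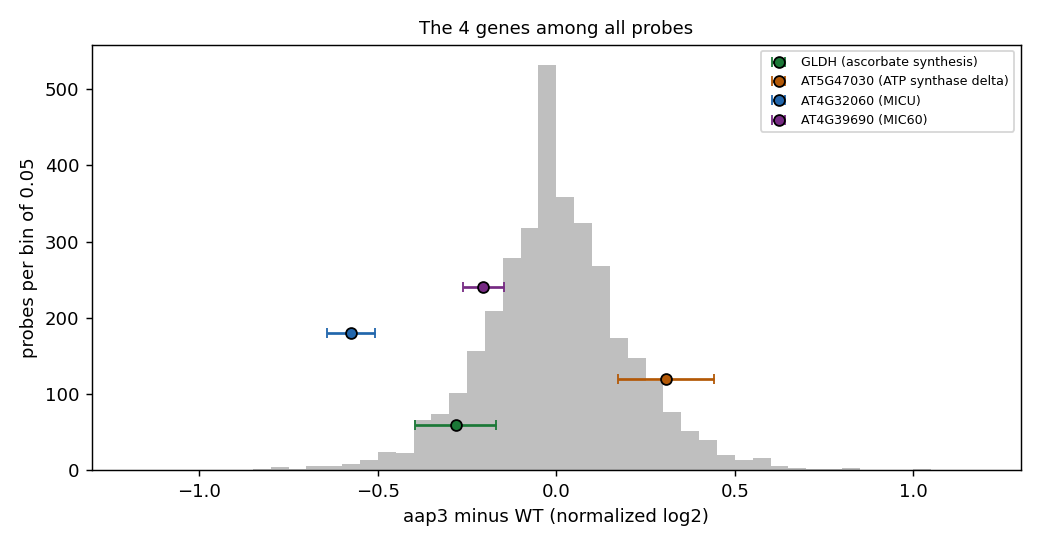
Histogram of the difference between aap3 and WT (aap3 minus WT, normalized log2) over all 3439 probes, with the 4 genes as points with SE; the height of a point carries no value. AT4G32060 lay at -0.58 in the lower tail, outside the 5th to 95th percentile range of -0.34 to 0.34 that held the other 3 genes.

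Genes of the same pathways were hardly covered. Of 151 genes in 12 lists of ascorbate synthesis and use, ATP synthase, calcium channel, cristae, respiratory complexes, alternative respiration, carriers and protein import, 1 had a single-gene probe, and 0 passed the limma threshold (unadjusted p under 0.05: 0, and 0 with the block). It was AT4G02580, a subunit of complex I, the respiratory complex whose assembly needs GLDH. Its deposited intensity was 0.0150 in aap3 replicate 1 and listed at 0 in the other 11 samples, so it gave no measurable difference. Since it lay above the floor in 0 samples, it could not have passed with or without the block, and nothing is read from that count. Of the listed genes, 5 were on probes paired with several genes, which were not used. ETFQO (AT2G43400), which passes electrons from amino acid and fatty acid breakdown into the respiratory chain, was found by a search for mitochondrial gene names after the lists were set. Its intensity averaged 0.566 ± 0.104 in aap3 and 0.569 ± 0.106 in WT (SD, n = 6 each). The ETFQO log2 difference was 0.08 ± 0.14 (SE, limma adjusted p = 0.885, and 0.255 with the block), higher in aap3 in 4 of 6 pairs.

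Whether the 4 genes moved together was described from their deviations from the group means, which do not depend on the difference between groups. In both groups AT5G47030, MIC60 and GLDH were below their group mean in replicates 5 and 6. MICU was below its group mean there too, but of these samples only WT replicate 6 (normalized log2 level 3.24) lay below all others of its group. The MICU level was lower in aap3 replicates 3 (2.78) and 4 (2.73) than in aap3 replicate 5 (2.80). WT replicates 3, 4 and 5 shared the value 3.41, just under the WT mean of 3.42. Over the 12 deviations Pearson's r was 0.80 between AT5G47030 and MICU (Spearman's rho 0.80, and r = 0.73 without the 2 samples where AT5G47030 lay farthest from its median). For the other pairs of genes r lay between 0.12, for MICU and MIC60, and 0.50, for AT5G47030 and MIC60. The 2 farthest samples were set by 1 gene of each pair, the earlier in the order GLDH, AT5G47030, MICU, MIC60. Without these 2 samples r for the other pairs of genes lay between -0.15, for MICU and MIC60, and 0.31, for GLDH and MIC60. The sign of r differed between the groups only for MICU and MIC60, at -0.23 in aap3 and 0.52 in WT (n = 6 each). No p is given, because samples share replicate numbers and neighbouring numbers are alike. The r of a member with the 2858 other probes above the floor had a median between -0.02 and 0.01, and its quartiles reached from -0.47 to 0.50.

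**Figure D4:**
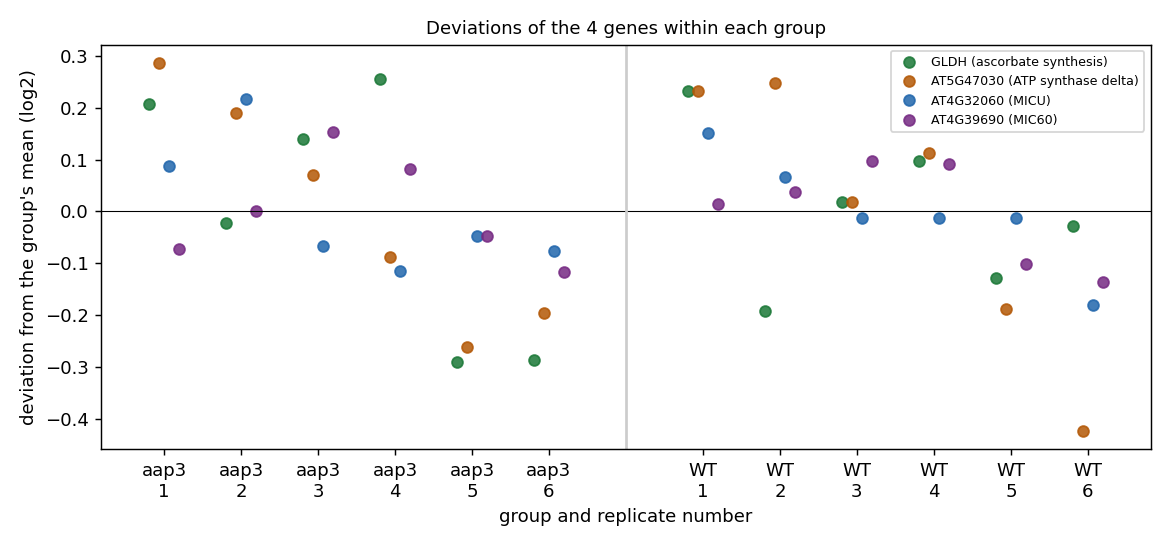
Deviation of each gene from its group's mean (normalized log2) in the 6 aap3 samples (left) and 6 WT samples (right). All 4 genes lay below 0 in replicates 5 and 6 of both groups, AT4G32060 also in replicates 3 and 4; elsewhere the genes spread to both sides.

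Probes at nearby numbers on the array deviated in a similar way for 3 of the 4 genes. The median deviation of the 20 probes nearest by number correlated over the 12 samples at 0.87 with AT5G47030, 0.77 with MIC60 and 0.72 with MICU, and at 0.08 with GLDH. After that median was subtracted, r between AT5G47030 and MICU was -0.45, against 0.80 before. For AT5G47030 and MIC60 it was 0.82, against 0.50 before. For GLDH and AT5G47030 r hardly moved, at 0.42 against 0.47 before, and for GLDH and MIC60 it was 0.29, against 0.48 before. MICU had r = -0.32 with GLDH and -0.41 with MIC60 after the subtraction, against 0.16 and 0.12 before. The sign of r thus depended on this step for the 3 pairs of genes that include MICU, and not for the other 3.

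The differences between aap3 and WT were set beside those of nearby probes as well. The 20 probes nearest to MICU had a median difference of 0.10, between -0.31 and 0.48, and 0 of them lay as low as MICU. Those nearest to AT5G47030 had a median of -0.02, and 1 of 20 lay higher than it. For MIC60 the median was -0.01 with 1 of 20 lower, and for GLDH -0.03 with 3 of 20 lower. The members were selected on their differences and the nearby probes were not, so nothing is read from these ranks. With the nearby deviations subtracted, the log2 difference was -0.65 ± 0.09 for MICU, 0.32 ± 0.07 for AT5G47030, -0.20 ± 0.06 for MIC60 and -0.26 ± 0.12 for GLDH (SE). AT5G47030 then passed without the block (limma adjusted p = 0.0251, against 0.257 before), as did MICU, while 6.43% of all probes passed.

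The pair differences showed no shared course. Over the 6 pairs, r between the differences of GLDH and AT5G47030 was -0.63: pair 6 held the lowest GLDH and the highest AT5G47030 difference. With the 2858 other probes above the floor, the quartiles of r were -0.53 and 0.45 for GLDH, and -0.30 and 0.35 for AT5G47030. For the other pairs of member genes r lay between -0.24 and 0.43. In pair 2 the difference was the smallest in size for MICU and GLDH, while for AT5G47030 it was smallest in pair 4 and for MIC60 in pair 3.

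Among the other 566 single-gene probes above the floor in all samples, those with deviations most like each member were named as a description. For GLDH these were AT4G17070 (r = 0.90 over 12 samples), NTRC (0.88), a plastid thioredoxin reductase, and AT4G39570 (0.84). The probe of AT4G17070 has number 577, just outside the 20 nearest to GLDH at 592, which run from 578 to 605. AT4G17070 had intensities of 14.7 ± 4.2 in aap3 and 22.3 ± 5.1 in WT (SD, n = 6 each). Its log2 difference was -0.77 ± 0.17 (SE, limma adjusted p = 0.0259 without the block). NTRC averaged 0.607 ± 0.097 in aap3 and 0.757 ± 0.052 in WT (SD, n = 6 each) and was lower in 5 of 6 pairs. Its log2 difference was -0.24 ± 0.095 (SE, limma adjusted p = 0.198, and 0.0919 with the block). AT4G39570 had a log2 difference of only 0.002 ± 0.075 (SE) and was lower in 4 of 6 pairs. AT5G47030 was most like AT2G25870, AT4G33480 and AT4G21770 (r = 0.94 for each). Their log2 differences, at -0.15 ± 0.13, -0.36 ± 0.38 and -0.09 ± 0.26 (SE), were below 0, while that of AT5G47030 was above 0. MICU was most like GLR2.7 (0.88), a glutamate receptor-like channel, AT5G40050 (0.86) and AT2G03200 (0.85). MIC60 was most like DAL1 (0.92), AGL26 (0.92), a MADS-box transcription factor gene, and AT2G26100 (0.90). The probe of AGL26 has number 4105, near MIC60 at 4112.

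Under the 11 other settings and the 12 omissions of 1 sample, no member changed direction. Each had been selected on its difference and kept its direction in 6 of 6 pairs, so little is read from this. The filters, the blocks, the averages of neighbouring replicates and the trended variance leave the difference itself unchanged by design. Only the other scalings, the offset, nearby subtraction and the omissions could have moved it. The log2 difference lay between -0.65 and -0.46 for MICU, -0.35 and -0.22 for GLDH, -0.24 and -0.15 for MIC60, and 0.22 and 0.36 for AT5G47030. MICU passed the limma threshold in all 12 omissions (adjusted p up to 0.00337), in which 3.72% to 5.50% of all probes passed. MIC60 passed in 2 of them, without aap3 replicate 3 (adjusted p = 0.0328) and without WT replicate 6 (0.0457). GLDH and AT5G47030 passed in 0 of 12 omissions without the block (limma adjusted p from 0.144 and from 0.208; the unadjusted p without omission was 0.0306 for GLDH and 0.0429 for AT5G47030).

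**Figure D5:**
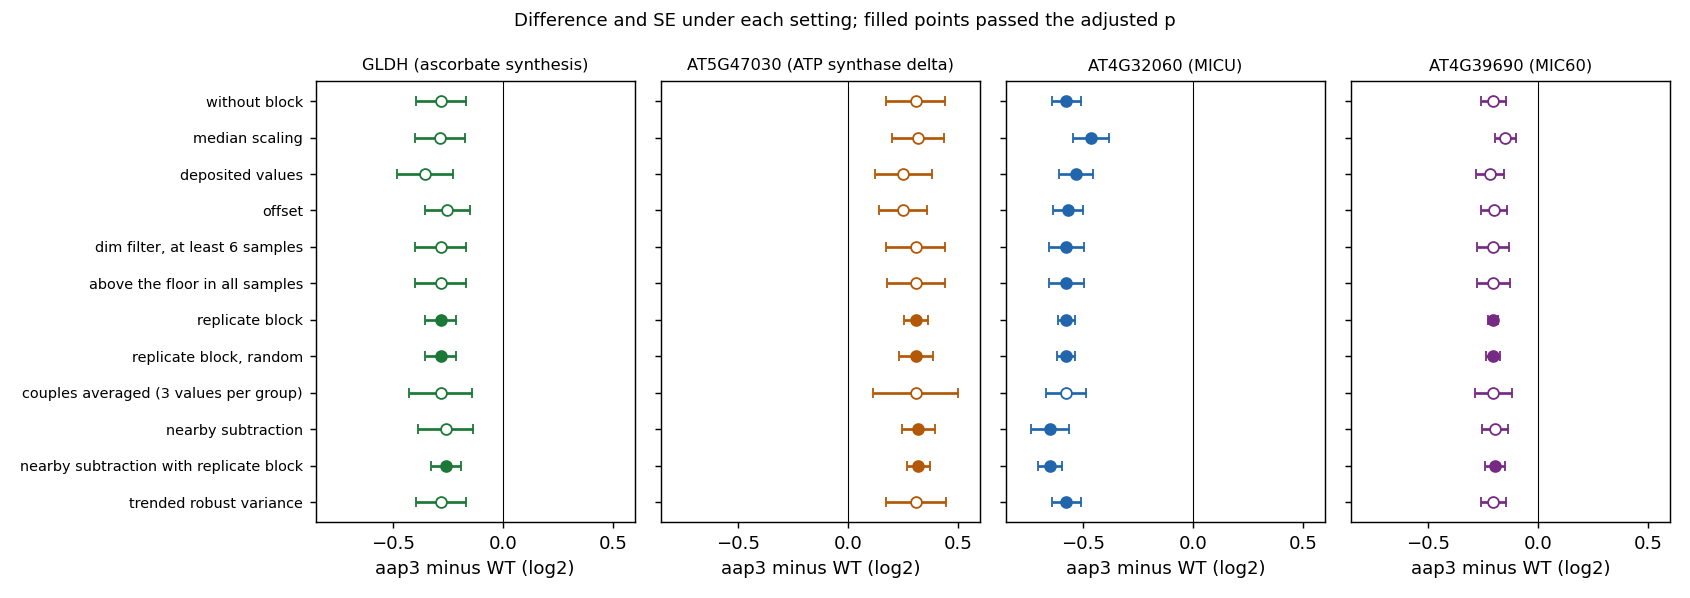
Difference between aap3 and WT (aap3 minus WT, log2, with SE) of each gene under the unblocked fit and 11 other settings; filled points passed a limma adjusted p of 0.05. AT4G32060 was filled in all settings except the averages of neighbouring replicates, and the other 3 genes in the 3 fits with a replicate block, AT5G47030 also after nearby subtraction. Of all probes, 17.1%, 20.7% and 24.7% passed with the fixed block, the random block, and nearby subtraction with the block. After nearby subtraction alone 6.43% passed, and with the averages 0.0291%. In the other settings 4.47% to 8.17% passed.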

How the data were processed

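Total RNA of 6 aap3 and 6 WT root samples was measured on an expression array. The authors deposited 1 linear intensity for each probe in each sample. How the authors corrected the background and normalized, and the type and colours of the array, is not stated in the labels used here. Groups came from the sample titles. Probes were named through the platform annotation held by GEO, matched by gene ID to the TAIR10.1 gene table (690 of 692 single-gene probes). The members, gene lists and likeness rule were chosen with earlier results of these data known, and nearby subtraction of the likeness values was added after they were seen.

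Each sample was divided by its median, floored at the 5th percentile of positive values (9.95% of values lay at or below it), put on the log2 scale and quantile normalized. The limma 3.58.1 functions lmFit and eBayes (R 4.3.3) fitted all 3439 probes without covariates, with Benjamini-Hochberg adjustment at 0.05. The code was tested on simulated data. All 12 samples correlated best with their own replicate number in the other group, a pairing taken from the data. The number of samples limits the precision. Named genes were the 4 members, the 3 most alike single-gene probes of each, and the listed genes measured. Alternatives were other scalings, an offset of 0.1 before log2, filters that leave out dim probes, the replicate number as a fixed or random block, averages of neighbouring replicates, subtraction of the median deviation of the 20 nearest probes, a trended robust variance and leaving out each sample. No sequence of a probe or gene was used here.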

Additional observations from a re-analysis of the deposited data

How the results depend on the processing

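No member changed direction under any alternative run, though filters, blocks, averages and the trended variance leave the difference itself unchanged by design. The members had also been selected on these differences, so little is read from this. The count of 172 calls was 281 with deposited values (median difference over all probes -0.05), 587 with the replicate block, 713 with it as a random block, 850 with nearby subtraction and the replicate block, and 1 with neighbouring replicates averaged, which left 3 values per group. The other 6 settings gave 140 to 221 calls, and leaving out each sample 128 to 189. Of the 4 members, limma called 4 with the fixed block (17.1% of all probes), 4 with the random block (20.7%) and 4 with nearby subtraction and the block (24.7%). It called 2 with nearby subtraction alone (MICU and AT5G47030), against 6.43% of all probes. With neighbouring replicates averaged it called 0 members and 0.0291% of all probes. There 1 member and 373 of all probes had an unadjusted limma p under 0.05. Omissions of 1 sample called 1 to 2 members and 3.72% to 5.50% of all probes. Over the omissions the log2 difference lay between -0.33 and -0.22 for GLDH, 0.22 and 0.36 for AT5G47030, -0.62 and -0.55 for MICU, and -0.24 and -0.18 for MIC60. What caused the changes in the counts of calls was not tested. AT5G47030 was dim, at 1.5 times the floor in its lowest sample, and whether this affected its difference was not tested.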
